A study of Mus musculus with 2 samples.

Results

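Hair keratins and keratin-associated proteins were examined in the RNAseq profile of SOX2-GFP cells from the newborn mouse tongue. Members were all entries of the deposited table whose symbol is Krt with a number from 31 to 42 or from 81 to 90, or Krtap followed by a digit, which gave 72 of 21628 entries. Of these, 15 are hair keratin genes by number, 10 of type I and 5 of type II, and 57 are Krtap genes. Lingual epithelium was taken at P0 from pups of genotype Sox2GFP, in which the Sox2 locus drives green fluorescent protein. Pups were pooled, the peeled epithelium was dissociated with enzymes, and about 100000 cells each of a bright (GFP_High, here GFPhigh) and a dim (GFP_Low, here GFPlow) population were sorted. Both populations carry the reporter allele, come from the same age and peeled tissue, and were separated by brightness. They also differ in cell types. The paper describes the dim cells as epithelium mixed with connective tissue, and the bright cells as epithelium enriched for taste and progenitor cells. Among its dim-cell genes it already names *Krtap3-1*, *Krt84*, *Krt36*, *Krt83*, *Krtap13-1* and *Krt81* as markers of epithelium. Those names and the values below come from the same libraries. Each population gave 1 library, so no difference has a replicate check, no test was run and no p-values are given. In bulk RNA, fewer cells of a type and less RNA per cell cannot be told apart.

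Hair keratins build the hard filaments of hair and nail, in which a type I (acidic) chain always pairs with a type II (basic) chain. Keratin-associated proteins are small, mostly single-exon gene products rich in cysteine or in glycine and tyrosine that crosslink these filaments in the hair shaft. On the tongue, hair-type keratins are known from the filiform papillae, the pointed, non-taste projections of the dorsal surface, whereas taste papillae and the surface between papillae are covered by soft keratins.

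Expression is given as FPKM, fragment counts scaled to the length of the transcript and to the mapped fragments of the library, so that levels of different genes can be set side by side. The FPKM of all entries summed to 1071442 in GFPhigh and 999614 in GFPlow cells. *Sox2* itself was at 112 FPKM in GFPhigh and 59.0 in GFPlow cells (fold 1.9), in the direction of the labels. The tissue label was checked on *Krt4*, a keratin of soft oral epithelium, which was at 14203 FPKM in GFPhigh and 2323 FPKM in GFPlow cells, and on *Krt5*, a keratin of the basal layer, at 9667 and 10422 FPKM. The labels give about 75000000 reads per sample. Low FPKM of single-exon genes fell on steps that point to about 31000000 reads behind the GFPhigh values and 35000000 behind the GFPlow values. At those depths, 70.0% of 40 low GFPhigh values and 76.9% of 39 low GFPlow values were within 0.15 of a whole read. Read numbers given for single genes rest on these approximate depths.

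The promoters of the most abundant members are shown first, because the members share a promoter feature that the choice by name did not use. RefSeq promoter windows of 250 bases before to 50 bases after a start site (GRCm38.p6) were matched for 62 of the 72 members. The 150 bases before the start site of 6 members follow, 5′ to 3′, in lower case with every TATAAA or TATATAA on the strand of the gene in capitals. *Krt36* (chr11:100105627-100105776, minus strand) and *Krt84* (chr15:101532821-101532970, minus strand) are the most abundant type I and type II members. The others are the Krtap genes at 5 FPKM or more, *Krtap3-1* (chr11:99566631-99566780, minus strand), *Krtap3-3* (chr11:99550864-99551013, minus strand), *Krtap3-2* (chr11:99556854-99557003, minus strand) and *Krtap13-1* (chr16:88728712-88728861, plus strand).
Krt36: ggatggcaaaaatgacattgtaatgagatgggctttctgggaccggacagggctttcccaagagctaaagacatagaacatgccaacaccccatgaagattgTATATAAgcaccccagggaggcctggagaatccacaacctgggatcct
Krt84: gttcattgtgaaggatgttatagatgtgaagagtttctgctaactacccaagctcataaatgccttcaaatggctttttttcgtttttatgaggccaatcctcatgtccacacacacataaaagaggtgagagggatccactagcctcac
Krtap3-1: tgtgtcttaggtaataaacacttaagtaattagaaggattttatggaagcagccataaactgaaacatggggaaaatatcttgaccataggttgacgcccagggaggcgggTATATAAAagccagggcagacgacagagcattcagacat
Krtap3-3: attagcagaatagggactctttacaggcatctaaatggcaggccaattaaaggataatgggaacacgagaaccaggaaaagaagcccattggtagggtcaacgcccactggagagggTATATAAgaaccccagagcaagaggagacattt
Krtap3-2: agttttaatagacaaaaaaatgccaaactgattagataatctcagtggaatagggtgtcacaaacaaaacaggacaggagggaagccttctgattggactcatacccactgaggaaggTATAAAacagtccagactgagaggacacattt
Krtap13-1: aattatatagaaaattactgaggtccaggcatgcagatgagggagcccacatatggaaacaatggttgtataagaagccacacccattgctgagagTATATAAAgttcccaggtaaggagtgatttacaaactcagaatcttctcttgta

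A TATA-type motif begins 33 bases before the start in *Krtap3-3*, 32 bases before it in *Krtap3-2* and 48 bases before it in *Krt36*. In *Krtap3-1* and *Krtap13-1*, TATAAA begins 37 and 52 bases before the start, overlapped by a TATATAA that begins slightly earlier. *Krt84* has neither motif in the stretch shown. TATAAA or TATATAA, 2 motifs that can overlap, occurred on either strand of the window in 59 of the 62 members (95.2%), against 17.3% of 27025 genes with a promoter window and 14 of 25 other keratin genes (56.0%). On the strand of the gene and within 100 bases before the start, a motif was present in 56 members (90.3%), against 5.46% of all genes and 52.0% of the other keratins. On either strand of the window, TATAAA or TATATAA was held by 28 of 30 members listed at 0 in both libraries and by 13 of 14 members at 1 FPKM or more. All 6 members with a window that were past 1.5-fold in GFPlow cells held it, while *Krt35*, *Krt81* and *Krt83* had no window. On the strand of the gene within 100 bases, the counts were 27 of 30, 11 of 14 and 5 of 6. The match of *Krt84* lies on the opposite strand, upstream of the stretch shown. TATATAA was added to the search after these promoters had been read. TATAAA alone, on either strand of the window, was in 49 of 62 members (79.0%). It was in 15.7% of all genes and in 12 of 25 other keratins (48.0%). Many members are close copies of each other in transcript sequence, so their promoters are not independent cases. CTTTGA, the core letters recognized by LEF1 and other TCF factors, was found on either strand in 20 of 62 members (32.3%) and in 18.2% of all genes. TTTATNA, an A/T-rich homeobox-type motif whose reverse complement can overlap TATAAA, was found in 23 members (37.1%) and in 16% of all genes. TGTTTNC, a forkhead-type motif, was found in 16 members (25.8%) and in 22.8% of all genes. A match describes letters in the window and not a bound site.

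Most hair keratins were low, but *Krt84* and *Krt36* were abundant in GFPlow cells and far lower in GFPhigh cells. Differences were counted at 1.5-fold or more between the libraries and 5 FPKM or more in the higher one. The study words its FPKM minimum in different ways, and its methods ask for the minimum in each sample, so the choice of the higher library is a reading made here. By this rule 9 of the 72 members (12.5%) were higher in GFPlow cells, against 4.44% of the 21611 entries with a number in both libraries. In GFPhigh cells 2 members (2.78%) were higher, against 4.72% of all entries. Of the 12 members at 5 FPKM or more in either library, 1, *Krt32*, was past 1.5-fold in neither direction. Only 5 of the 12 reached 5 FPKM in both libraries, so the other 7 entered through the library in which they were higher. With 5 FPKM required in both libraries, 4 members were higher in GFPlow cells, *Krt35*, *Krt36*, *Krt84* and *Krtap3-3*, and 0 in GFPhigh cells, against 2.93% and 3.6% of the 21611 entries. For the entries at 5 FPKM or more in either library, 8.91% were past 1.5-fold in GFPlow and 9.48% in GFPhigh cells. A fold of 10 or more toward GFPlow was reached by 7 of the 12 members and by 0.715% of such entries. With each library scaled to its FPKM sum (TPM), every GFPhigh/GFPlow ratio is shifted by −0.10 on the log2 scale, and the share of calls of all genes that are higher in GFPhigh cells goes from 51.6% to 39.8%. On that scale the 9 members were still called in GFPlow cells, and the 11.4% of entries called in GFPlow and 7.54% in GFPhigh cells are the matching background.

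**Figure D1:**
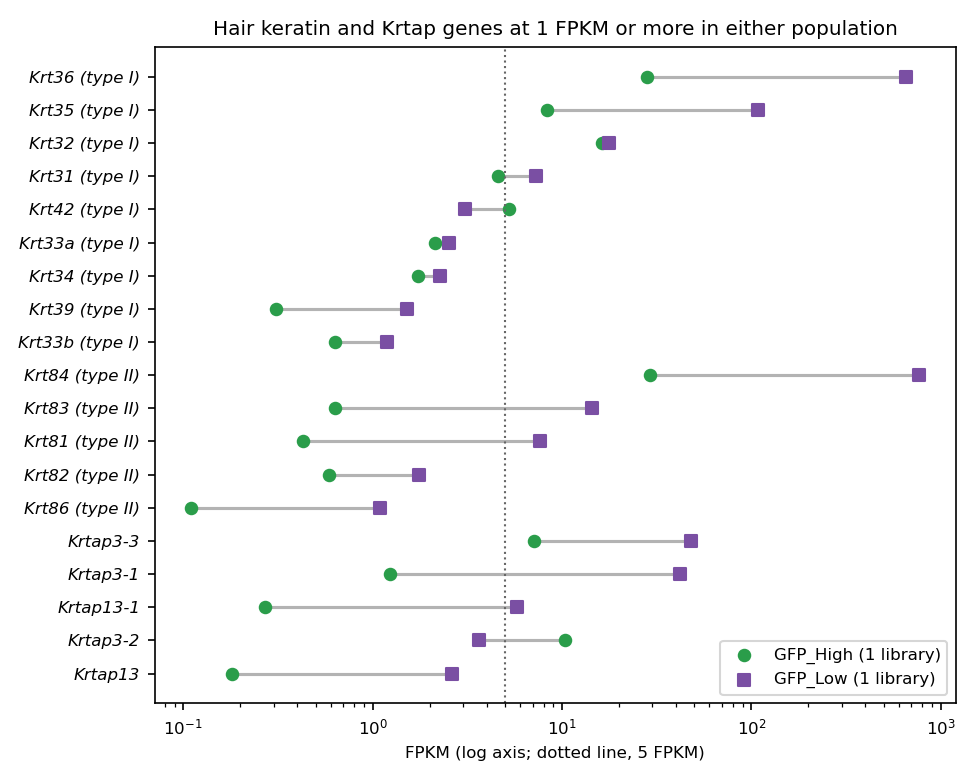
FPKM of the 19 hair keratin and Krtap genes at 1 FPKM or more in either population, on a log axis, with circles for the GFPhigh library, squares for the GFPlow library and a line joining the values of a gene. Krt36 and Krt84 lie at 657 and 769 FPKM in GFPlow cells, and only Krt42 and Krtap3-2 have the GFPhigh value to the right.

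Among type II members, *Krt84* (ENSMUSG00000044294, mm10 chromosome 15, 101525026 to 101532820), a hair-type keratin known from the tongue, was at 29.1 FPKM in GFPhigh and 769 FPKM in GFPlow cells, a fold of 26.4 toward GFPlow. No 50-nt window of its transcripts occurs in another gene, and about 2202 and 65708 reads stand behind its values. *Krt84* alone made up 96.9% of the summed FPKM of the type II members in GFPlow and 94.3% in GFPhigh cells. The other 4 type II members, which build the cortex and cuticle of hair, were at 14.4 FPKM or less and were also higher in GFPlow cells. The entry listed as *Krt83* (ENSMUSG00000047641, named *Krt87* in GENCODE M21) had 0.63 FPKM in GFPhigh and 14.4 in GFPlow cells, a fold of 22.9. *Krt81* had 0.43 and 7.69 FPKM, a fold of 17.9. *Krt86* had 0.11 and 1.1 FPKM, and *Krt82*, a keratin of the hair cuticle, had 0.59 and 1.76 FPKM, both under 5 FPKM in each library. Of the 50-nt transcript windows of *Krt81*, *Krt83* and *Krt86*, 37.7%, 36.9% and 43.3% occur in another gene, so reads may be split among these close copies and their separate FPKM are uncertain.

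Among type I members, *Krt36* (ENSMUSG00000020916, chromosome 11, 100102007 to 100105626) was at 28.1 FPKM in GFPhigh and 657 FPKM in GFPlow cells, a fold of 23.4. *Krt35* (ENSMUSG00000048013, chromosome 11, 100092193 to 100096241), which in hair starts in the matrix and early cortex, was at 8.34 and 109 FPKM, a fold of 13.1. These neighbours share few windows with other genes, 0.4% for *Krt36* and 2.7% for *Krt35*. Both were over 5 FPKM in the GFPhigh library as well. Whether these values come from bright cells or from dim cells sorted with them was not tested.

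The type I genes next to them did not follow *Krt35* and *Krt36* in size. *Krt32* (chromosome 11, 100080848 to 100088226), a keratin of the hair cuticle, was at 16.3 FPKM in GFPhigh and 17.8 FPKM in GFPlow cells, a fold of 1.09. *Krt31*, a cortical hair keratin, was at 4.58 and 7.3 FPKM, a fold of 1.59 that passed the 1.5-fold minimum by little, and it was not called with 1 added to each FPKM. *Krt33a* had 2.13 and 2.52 FPKM, *Krt34* 1.74 and 2.26 FPKM, and *Krt33b* 0.63 and 1.19 FPKM, all under 5 FPKM. The 5 genes from *Krt31* to *Krt34* summed to 25.4 FPKM in GFPhigh and 31 FPKM in GFPlow cells, a ratio of 1.22, against 36.4 and 766 FPKM for *Krt35* and *Krt36*, a ratio of 21.1. Windows shared with another gene made up 28.1% for *Krt31*, 33.1% for *Krt34* and 24.2% for *Krt33b*, which are close copies of each other, but 6.5% for *Krt32*, which also lies opposite an annotated antisense gene, *Gm11571*. The libraries were stranded.

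*Krt39* and *Krt40*, late hair keratins that lie apart from the other type I members at the far side of the Krtap block, were at the low end. *Krt39* had 0.31 FPKM in GFPhigh and 1.52 FPKM in GFPlow cells. *Krt40* is listed at 0 in GFPhigh and had 0.03 FPKM in GFPlow cells, about 1.2 reads. *Krt42* (chromosome 11, 100262882 to 100269871), which lies beside the soft keratin gene *Krt17* and away from the other members, was the only hair keratin number with a higher value in GFPhigh cells, at 5.26 FPKM against 3.07, a fold of 1.71. *Krt42* is counted with the hair keratins, also in the sums and medians, by its number alone. On the TPM scale it was under 5 in both libraries and was not called.

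Summed over the genes, type I members were at 67.4 FPKM in GFPhigh and 802 FPKM in GFPlow cells, and type II members at 30.9 and 794 FPKM. The type I sum was therefore 1.01 times the type II sum in GFPlow cells and 2.18 times in GFPhigh cells. In GFPlow cells *Krt36* made up 82.0% of the type I sum, but in GFPhigh cells it made up 41.6%, with *Krt32* at 24.3%. *Krt36* was at 0.964 of the FPKM of *Krt84* in GFPhigh and at 0.854 in GFPlow cells, so these genes kept nearly the same proportion at levels over 20-fold apart. Together they held 83.9% of the FPKM of all 72 members in GFPlow and 48.1% in GFPhigh cells. Without this pair, the other 70 members summed to 61.7 FPKM in GFPhigh and 274 FPKM in GFPlow cells, a ratio of 4.45. All 72 members were 0.170% of the summed FPKM of the GFPlow library and 0.0111% of the GFPhigh library.

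**Figure D2:**
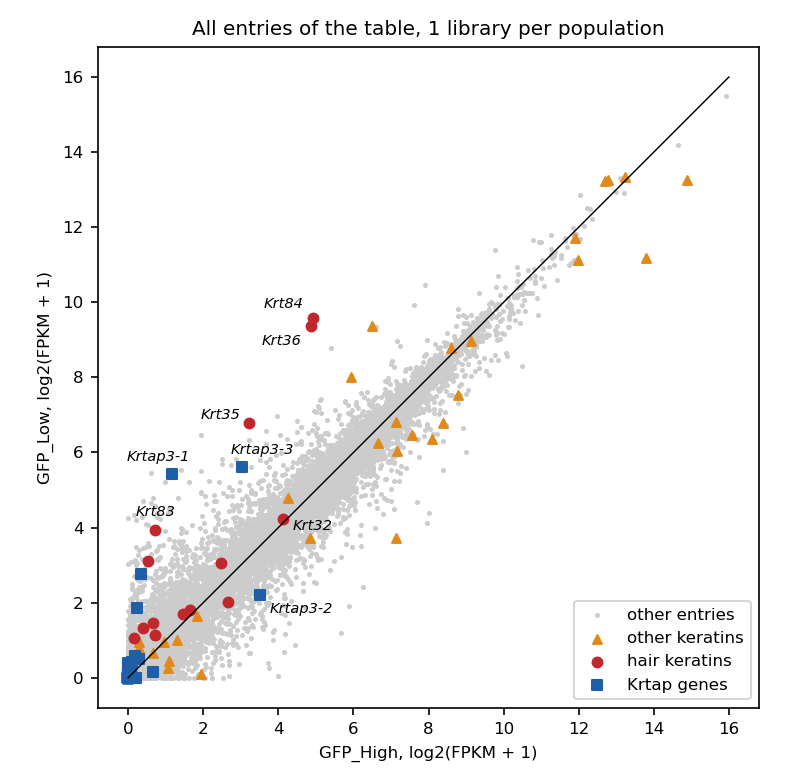
log2(FPKM + 1) of every entry in the GFPhigh library (x axis) and the GFPlow library (y axis), with hair keratins, Krtap genes and the other keratins marked and equal values on the line. Krt84, Krt36 and Krt35 lie far above the line, Krt32 lies near it, and most Krtap genes are at the origin.

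Of the 57 Krtap genes, 24 were above 0 in either library (42.1%), compared with 80.0% of all entries, and 33 are listed at 0 in both. A listed 0 need not mean no transcript, because many of these genes are short or close copies. In GFPhigh cells 3 reads equal 0.931 FPKM for the short *Krtap19-4*. Windows shared with another gene went from 0% in *Krtap7-1* to 81.3% in *Krtap4-13*, so reads of copies may be split or lost. All but 5 of the 57 Krtap genes were under 1 FPKM in both libraries. The 5 genes that reached 1 FPKM belong to only 2 of the 27 Krtap families of the table, Krtap3 and Krtap13, whose products are high-sulfur proteins of the hair cortex. *Krtap3-1* (ENSMUSG00000047564, chromosome 11, 99566027 to 99566630) was at 1.23 FPKM in GFPhigh and 42.1 FPKM in GFPlow cells, a fold of 34.2 and the largest among members above 0 in both libraries. About 15.4 and 594.9 reads stand behind these values. *Krtap3-3* (ENSMUSG00000069722, chromosome 11, 99550130 to 99550865) was at 7.13 and 48.1 FPKM, a fold of 6.74.

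*Krtap3-2* (ENSMUSG00000069721, chromosome 11, 99555823 to 99556853) lies between these genes on the same strand and went the other way. It was at 10.4 FPKM in GFPhigh and 3.63 FPKM in GFPlow cells, a fold of 2.87 toward GFPhigh, from about 268 and 106 reads. It made up 55.5% of the FPKM of the 3 Krtap3 genes in GFPhigh and 3.87% in GFPlow cells. The fold was 2.68 on the TPM scale and 2.47 with 1 added to each FPKM, settings that could not have reversed its direction. Of its 50-nt windows, 28.9% occur in another gene, chiefly in *Krtap3-3*, of which 41.3% of windows are shared, so the FPKM of both are uncertain. *Krtap3-1* shares 8.8% of its windows.

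On chromosome 16, *Krtap13-1* (ENSMUSG00000056350, 88728862 to 88729611) was at 0.27 FPKM in GFPhigh and 5.78 FPKM in GFPlow cells, a fold of 21.4. *Krtap13* (88750744 to 88751635) was at 0.18 and 2.62 FPKM, a fold of 14.6 at levels under 5 FPKM. The GFPhigh values correspond to about 4.6 and 3.9 reads, so the folds are imprecise. Transcript windows of *Krtap13-1* are unique, while 24.9% of those of *Krtap13* occur in another gene.

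The remaining 52 Krtap genes summed to 1.4 FPKM in GFPhigh and 2.64 FPKM in GFPlow cells. Of these, 19 were above 0 in either library, and 14 of the 19 stand on 3 reads or fewer in both, a level at which no fold was read. The highest in GFPlow cells was *Krtap27-1*, at 0.5 FPKM from about 7.8 reads, against 0.14 FPKM in GFPhigh cells. The highest in GFPhigh cells was *Krtap4-16*, at 0.58 FPKM from about 13.6 reads, against 0.11 FPKM in GFPlow cells. *Krtap9-3* had 0.22 FPKM in GFPhigh and 0.4 in GFPlow cells, *Krtap12-1* 0.08 and 0.33, and *Krtap17-1* is listed at 0 in GFPhigh and had 0.25 FPKM in GFPlow cells. By class, 11 of 15 high-sulfur genes were above 0 in either library, 8 of 20 ultra-high-sulfur genes and 4 of 15 high glycine-tyrosine genes. No ultra-high-sulfur gene passed 0.58 FPKM and no high glycine-tyrosine gene passed 0.31 FPKM. The other 7 genes were not classed, and 6 of them are listed at 0 in both libraries.

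The members above 0 were mostly higher in GFPlow cells. This held for 33 of the 39 members above 0 in either library (84.6%) and for 53.5% of all such entries, although many of these differences are of a few reads. The other 6 members (15.4%) were higher in GFPhigh cells, as were 45.6% of all such entries. The median difference, GFPhigh minus GFPlow on the log2(FPKM + 1) scale, was −0.80 over the 15 hair keratins, −0.11 over the 24 Krtap genes above 0, 0.17 over the 35 other keratins and −0.02 over all entries above 0. This scale understates the difference of low genes, and no test was made on these medians.

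By location, 33 members lie on chromosome 11, in the type I keratin cluster, where 5 were past 1.5-fold in GFPlow and 2 in GFPhigh cells. The 5 type II members lie together on chromosome 15, and all were higher in GFPlow cells, 3 of them past the rule. Of 24 members on chromosome 16, all Krtap genes, 16 are listed at 0 in both libraries. The 5 members on chromosome 7 and the 2 on chromosome 1 are all listed at 0, as are 2 of 3 on chromosome 10. On chromosome 11 the members above 5 FPKM in GFPlow cells stood on both sides of a run of Krtap genes at 0.58 FPKM or less, with *Krtap3-1* and *Krtap3-3* on the side of *Krt39* and *Krt40*, and *Krt31*, *Krt32*, *Krt35* and *Krt36* on the side of the soft keratin gene *Krt13*. *Krt13*, the gene next to *Krt36*, was at 30523 FPKM in GFPhigh and 9738 FPKM in GFPlow cells, a fold of 3.13 in the opposite direction. On chromosome 15, the closest keratin gene beyond *Krt82*, *Krt75*, a keratin of the companion layer of the hair follicle, was at 140 FPKM in GFPhigh and 12.1 in GFPlow cells, a fold of 11.6 toward GFPhigh, beside *Krt84* with 26.4 toward GFPlow.

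**Figure D3:**
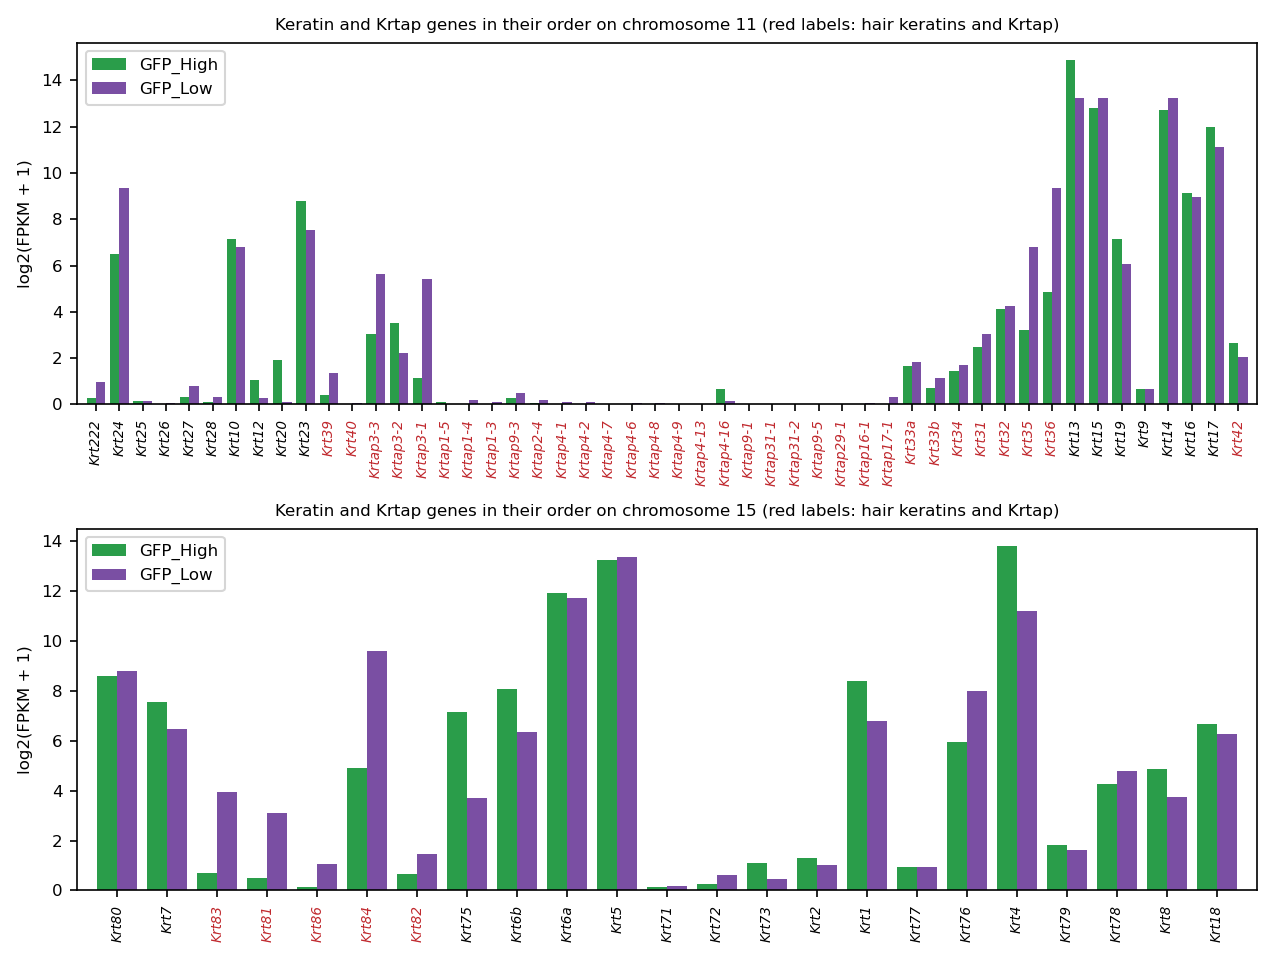
log2(FPKM + 1) of keratin and Krtap genes in the GFPhigh and GFPlow libraries, in their order along chromosomes 11 and 15, with members in red labels and even spacing in place of distance. On chromosome 11 the Krtap genes between Krtap3-1 and Krt33a are near 0, while Krt36 at 657 FPKM in GFPlow cells lies beside Krt13, which is higher in GFPhigh cells.

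Of the 35 keratins outside the chosen numbers, 19 had the higher value in GFPhigh and 15 in GFPlow cells. Of the 21 at 5 FPKM or more in either library, 10 were past 1.5-fold in GFPhigh cells (47.6%, against 9.48% of all such entries) and 2 in GFPlow cells (9.52%, against 8.91%), *Krt24* and *Krt76*. The other 9 were past 1.5-fold in neither direction. *Krt24* was at 89.6 FPKM in GFPhigh and 657 FPKM in GFPlow cells, a fold of 7.33, and *Krt76*, a keratin of the hard palate and other cornified oral surfaces, was at 60.1 and 256 FPKM, a fold of 4.26. Summed, the other keratins were at 78915 FPKM in GFPhigh and 50132 FPKM in GFPlow cells. The hair keratins were thus a small addition to a soft keratin epithelium in both libraries, at 98.2 FPKM in GFPhigh and 1596 FPKM in GFPlow cells.

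Genes that work with hair keratins outside the family were compared from lists. These lists were chosen with earlier results of these data known, so their counts are a description and no separate support. Of 15 transcription factors and receptors known from hair shaft differentiation, 11 reached 5 FPKM in either library, 6 were past 1.5-fold in GFPlow cells and 1 in GFPhigh cells. Of all entries at 5 FPKM or more in either library, 8.91% and 9.48% were. The counts past 1.5-fold among list genes at 5 FPKM that follow have the same background. *Hoxc13*, the homeobox factor that directly regulates hair keratin genes, was at 1.93 FPKM in GFPhigh and 13.8 FPKM in GFPlow cells, 7.17-fold higher in the latter, which no other gene of the list at 5 FPKM exceeded. *Msx2* was at 3.36 and 8.69 FPKM, *Vdr*, the vitamin D receptor, at 24 and 51.3 FPKM, and *Lef1*, a Wnt effector in the hair matrix, at 17.2 and 31.5 FPKM. *Hoxc13* and *Msx2* reached 5 FPKM in GFPlow cells only, so they entered the count through the library in which they were higher. *Dlx3* and *Trps1* were the others past 1.5-fold in GFPlow cells, with folds of 1.59 and 1.53. *Foxn1*, which is needed for hair keratinisation, was at 19.6 and 26.4 FPKM, under 1.5-fold. *Ovol1* was the 1 gene past the rule in GFPhigh cells, at 98.7 against 54.8 FPKM. The part of connective tissue cells in these values was not tested.

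Of 14 hair shaft genes outside the keratins, 7 reached 5 FPKM, with 1 past 1.5-fold in GFPlow and 2 in GFPhigh cells. *Tchh*, which encodes trichohyalin of hair and filiform papillae, was at 30.0 FPKM in GFPhigh and 108 FPKM in GFPlow cells, a fold of 3.6. *Selenbp1* and *Tgm3*, a transglutaminase that crosslinks structural proteins, were higher in GFPhigh cells, with folds of 1.75 and 1.52. *Padi3*, whose enzyme modifies trichohyalin, was at 2.52 and 1.42 FPKM, and the hair desmosomal cadherin *Dsg4* at 0.05 and 0.16 FPKM. *Hephl1* had 0.2 and 3.11 FPKM and *Crym* 0.05 and 1.84 FPKM, both under the 5 FPKM minimum.

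Markers of hair follicle tissue were checked in the same way. Of the 9 measured keratins on a hair follicle list, *Krt75* was the only gene at 5 FPKM and was higher in GFPhigh cells. The paper names *Krt75* among bright-cell genes linked broadly to epithelial development, so its value does not by itself mark hair follicle tissue. *Krt25*, *Krt26*, *Krt27*, *Krt28*, *Krt71* and *Krt72* were at 0.72 FPKM or less in both libraries. *Krt73* was at 1.12 FPKM in GFPhigh and 0.36 in GFPlow cells, and *Krt79* at 2.53 and 2.11 FPKM. The 8 dermal papilla genes summed to 14.1 FPKM in GFPhigh and 39.9 FPKM in GFPlow cells, and 3 of them reached 5 FPKM in either library. *Hhip*, at 1.09 and 20 FPKM (fold 18.3), and *Crabp1*, at 3.95 and 14.3 FPKM (fold 3.62), were past 1.5-fold in GFPlow cells. *Ntn1*, at 5.89 and 2.82 FPKM (fold 2.09), was past it in GFPhigh cells. *Rspo3* and *Tbx18* were at 0.04 FPKM or less in both libraries. The part of hair follicle tissue in the member values was not tested.

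The populations also differed in other cell types. As background, 53.5% of all entries above 0 in either library were higher in GFPlow and 45.6% in GFPhigh cells. Of entries at 5 FPKM or more in either library, 8.91% were past 1.5-fold in GFPlow and 9.48% in GFPhigh cells. Schwann lineage markers were higher in GFPlow cells for 7 of 7 genes, and 5 of the 6 at 5 FPKM were past 1.5-fold. They summed to 67.4 FPKM in GFPhigh and 263 FPKM in GFPlow cells. *Sox10* was at 0.51 and 42.7 FPKM. Fibroblast markers were higher in GFPlow cells for 10 of 11 genes, with 6 of the 8 at 5 FPKM past 1.5-fold, and summed to 545 and 2363 FPKM. Basal keratinocyte markers were higher in GFPlow cells for 7 of 7 genes, all at 5 FPKM, with 1 past 1.5-fold, and summed to 25796 and 32952 FPKM. Simple keratins of taste buds were higher in GFPhigh cells for 5 of 5 genes, with 3 of the 4 at 5 FPKM past 1.5-fold. Among 12 measured cornified envelope genes, 8 reached 5 FPKM. Of these, 4 were past 1.5-fold in GFPhigh cells, among them *Sprr3* (484 and 100 FPKM, fold 4.84). In GFPlow cells 3 were past it, *Rptn* (5.82 and 27.7 FPKM, fold 4.75), *Crnn* (8.08 and 25.9 FPKM, fold 3.21) and *Sprr1b* (83.0 and 167 FPKM, fold 2.01). Of 18 soft epithelial keratins, 16 reached 5 FPKM, with 6 past 1.5-fold in GFPhigh and 2 in GFPlow cells. Melanocyte genes had 1 of 6 at 5 FPKM, *Mitf*, which was past 1.5-fold in GFPhigh cells, with *Tyr* listed at 0 in both libraries. Endothelial and leukocyte genes each had 2 of 7 at 5 FPKM and 1 past the rule, in GFPhigh cells. Skeletal muscle genes had none past it in either direction, with 1 of 7 at 5 FPKM. The part of these cell types in the hair keratin values was not tested.

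**Figure D4:**
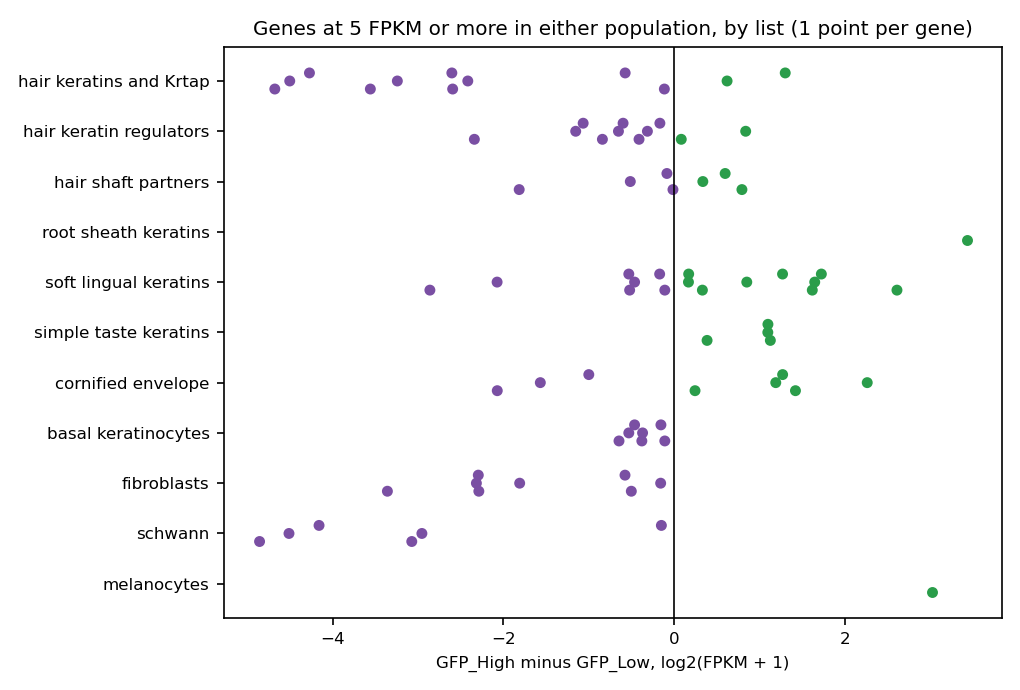
Difference between GFPhigh and GFPlow cells in log2(FPKM + 1), 1 point per gene, for genes at 5 FPKM or more in either library, by list, with points left of 0 higher in GFPlow cells. Of the 12 hair keratin and Krtap genes, 10 lie left of 0, as do all basal keratinocyte, fibroblast and Schwann genes shown.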

How the data were processed

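RNA from 1 GFP_High and 1 GFP_Low library was sequenced as stranded single-end reads of 50 nt. The authors trimmed reads with Trimmomatic 0.36, mapped them to mm10 with GSNAP, and computed FPKM in Cufflinks 2.2.1. The deposited values carry 2 decimals. FPKM columns are named means, but each has 1 library in the labels. A further deposited column holds the signed fold of the authors and was not used. Entries without a number (7 in GFP_High, 14 in GFP_Low) were treated as missing, and 37 entries repeat an identifier.

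Folds are ratios of FPKM. Members and lists were chosen with earlier results of these data known. Named were all members at 1 FPKM or more in either library, the list genes with the largest folds at 5 FPKM or more, and, after their values were seen, some genes under these levels and members with over 3 reads. Positions and exon lengths came from GENCODE M21. Depth was sought over single-exon, single-transcript genes of 450 to 2500 nt, taking 200 nt from the length, by a procedure settled on these values. Too few low values were near whole reads for counts to be recovered, so counts were not tested. Shared 50-nt windows were counted on GENCODE transcripts, on either strand, with 20% taken as a mark. Computations used Python 3.11.15, pandas 2.3.3 and numpy 2.4.6, with alternatives in scale, FPKM minimum, fold and pseudocount.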

Additional observations from a re-analysis of the deposited data

How the results depend on the processing

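The 9 members past 1.5-fold in GFPlow cells became 14 with a minimum of 1 FPKM, 19 with no minimum (both libraries above 0), 4 with 5 FPKM required in both libraries, and 5 without members that share 20% or more of their transcript windows, an alternative chosen after seeing the data. The 2 members past 1.5-fold in GFPhigh cells became 1 on the TPM scale, with a minimum of 10 FPKM, at 2-fold and without members sharing windows, and 0 with 5 FPKM in both libraries. With a pseudocount of 0.1 the median log2 difference was −1.43 over the hair keratins and −0.77 over the Krtap genes, and over Krtap genes with a mean of at least 1 FPKM it was −2.42. None of the 19 folds computed for members at 1 FPKM or more changed direction on the TPM scale, after scaling by the median ratio (0.973), or with 0.1 or 1 added. None could have, because an added constant cannot reverse a ratio and both scalings are smaller than the lowest fold, 1.09. The kept directions are therefore no check. With 1 added, 8 of the 19 moved by over 1.5 times, among them *Krtap3-1*, from 34.2 to 19.3. No paired analysis was possible because each population has 1 library, and no library could be left out for the same reason.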
